A study of Drosophila melanogaster with 3 samples.

Results

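Deep intronic peaks of OdsH-GFP are the places inside long introns, far from any annotated gene start, where the fusion protein was enriched on chromatin. They were chosen by position alone: the summit of an IDR peak had to lie inside a gene body, in no annotated exon, and more than 5000 bp from every annotated transcription start site (TSS), with transposable elements left out of the annotation. The rule kept 1565 of the 8700 peaks of the authors' IDR set, the peaks that passed the irreproducible discovery rate procedure over the replicates. The data came from chromatin immunoprecipitation with sequencing in *Drosophila melanogaster*. The single group held 3 biological replicates of whole white prepupae, both sexes pooled, from a transgenic line in which OdsH carried GFP at its C terminus, and chromatin was sheared by sonication before precipitation with an antibody to GFP. No other genotype, stage or tissue was sampled, and the replicate lists were called against 1 shared control. Because whole animals were used, binding in more cells and stronger binding per cell cannot be told apart, and the promoter that drives the fusion is not given in the sources used here. For the same reason the cell types that express the fusion are unknown, and sequencing depth is unknown too.

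OdsH (Ods-site homeobox, also called Odysseus) is a paired-class homeodomain protein. Homeodomains recognise short A- and T-rich words around a TAAT core, and paired-class proteins can also bind as dimers to a TAAT and an ATTA a few bases apart. Long introns of fly genes often hold enhancers, which act on a promoter at a distance, and many developmental genes have such introns. White prepupae stand at the start of metamorphosis, just after a pulse of the steroid hormone ecdysone.

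The first 5 sequences are summit windows from the 6 strongest deep intronic peaks that all 3 replicates supported, all but that in *Psc*, because they show what the most enriched intronic sites look like. Each spans 50 bp to each side of the summit and was read from the plus strand of the RefSeq copy of the dm6 assembly. Capitals mark the homeodomain words TAATTA and TAATTG.
CG32486 (chr3L:3060751-3060851): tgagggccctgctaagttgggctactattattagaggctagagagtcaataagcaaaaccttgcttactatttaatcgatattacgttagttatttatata
Mi-2 (chr3L:19903229-19903329): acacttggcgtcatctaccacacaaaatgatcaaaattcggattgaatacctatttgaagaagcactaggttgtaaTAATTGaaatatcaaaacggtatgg
dpp (chr2L:2433600-2433700): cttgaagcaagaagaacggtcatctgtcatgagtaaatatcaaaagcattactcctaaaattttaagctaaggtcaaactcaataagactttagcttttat
Raf (chrX:2300658-2300758): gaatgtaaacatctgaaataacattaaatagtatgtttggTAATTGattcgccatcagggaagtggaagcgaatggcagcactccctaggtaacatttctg
Hr4 (chrX:1947703-1947803): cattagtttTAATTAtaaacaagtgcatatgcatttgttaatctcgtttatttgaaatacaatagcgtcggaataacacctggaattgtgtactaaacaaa
All 5 windows were rich in A and T, with GC contents of 34.7% in *CG32486*, 34.7% in *Mi-2*, 31.7% in *dpp*, 38.6% in *Raf* and 28.7% in *Hr4*. Neither homeodomain word occurred in the windows of *CG32486* and *dpp*.

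The next 3 windows are among the strongest others that carried TAATTA, shown because that word is the core many homeodomains bind.
simj (chr3L:10682948-10683048): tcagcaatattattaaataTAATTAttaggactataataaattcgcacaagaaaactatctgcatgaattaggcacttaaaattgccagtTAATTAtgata
Eip74EF (chr3L:17611434-17611534): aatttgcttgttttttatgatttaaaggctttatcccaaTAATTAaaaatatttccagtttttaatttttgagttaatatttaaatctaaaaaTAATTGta
Tet (chr3L:2847404-2847504): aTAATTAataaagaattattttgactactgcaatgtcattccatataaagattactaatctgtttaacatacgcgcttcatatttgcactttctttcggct
The *simj* window held TAATTA at 2 places, and the *Eip74EF* window, with a GC content of 16.8%, held TAATTA and TAATTG.

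The last 3 windows are among the strongest that carried GGTCACAC, here as its reverse complement GTGTGACC in capitals. This word resembles core promoter motif 1, which is best known from gene starts, and these windows were picked after the word's frequency had been seen.
S (chr2L:1065156-1065256): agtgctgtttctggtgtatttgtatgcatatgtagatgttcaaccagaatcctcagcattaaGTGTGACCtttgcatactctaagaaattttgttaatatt
CG43658 (chrX:17518449-17518549): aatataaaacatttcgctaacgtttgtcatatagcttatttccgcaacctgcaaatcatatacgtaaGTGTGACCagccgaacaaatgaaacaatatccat
SKIP (chr3R:22182398-22182498): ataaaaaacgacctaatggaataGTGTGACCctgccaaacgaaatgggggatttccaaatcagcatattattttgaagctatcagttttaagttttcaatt
They lay 12605 bp (*S*), 11410 bp (*CG43658*) and 8201 bp (*SKIP*) from the nearest annotated TSS.

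Deep introns held OdsH-GFP peaks at a density below that of the genome as a whole and well below that of sequence closer to gene starts. Peaks of the IDR set lay at 55.3 per Mb of deep intronic sequence, against 145 per Mb within 500 bp of a TSS (promoter), 102 per Mb in the remaining introns (near intronic), 49.1 per Mb between genes and 65.0 per Mb over the 6 chromosome arms. The same count was made in each replicate's own 8700 strongest peaks. Deep introns then held 49.6, 53.1 and 54.0 summits per Mb in replicates 1, 2 and 3, against 168, 160 and 152 per Mb at promoters and 100, 99.4 and 96.3 per Mb in near introns. Every deep intronic value was below every promoter and near intronic value, whereas the intergenic values of 43.4, 44.8 and 50.4 per Mb overlapped them. Deep introns covered 28.3 Mb, or 21.1% of the bases, and held 18% of IDR peaks. The replicates' shares were 16.1, 17.3 and 17.6% (17.0% ± 0.760, SD, n = 3), each below the share of bases. The exact two-sided sign-flip permutation test over the 3 replicates gave p = 0.25, which is the smallest value that 3 replicates can give, so no test over replicates here can pass 0.05.

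**Figure D1:**
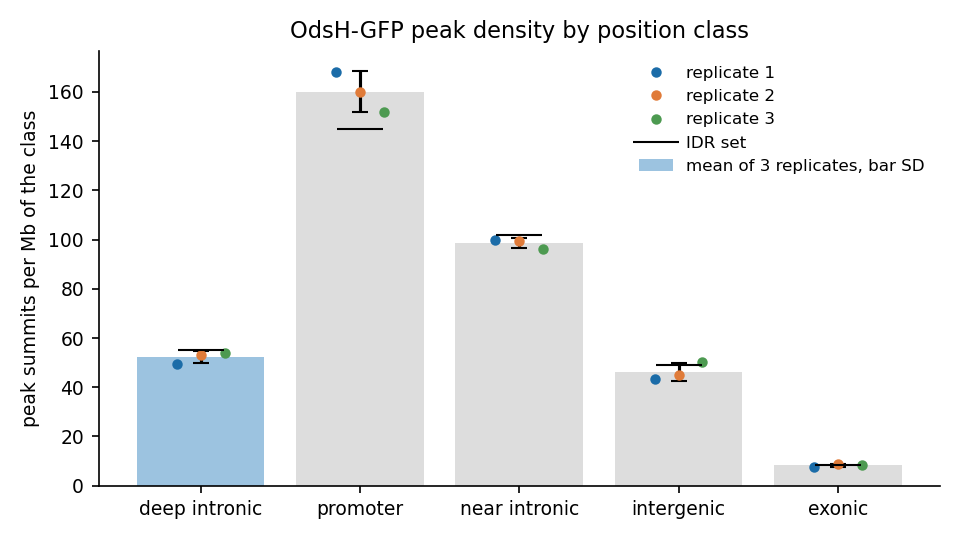
Peak summits per Mb of each position class. Columns are means over the 3 replicates' own 8700 strongest peaks with SD bars, dots are the replicates and black dashes the IDR set. Deep introns stand at 52.2 ± 2.34 per Mb, promoters at 160 ± 8.32, near introns at 98.6 ± 2.02 and intergenic sequence at 46.2 ± 3.69.

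Some deep intronic sequence held no deep intronic peak at all. Of 1342 bins of 100000 bp, 85 had more than 40% of their bases masked as repeats or unknown, and they held 9.25% of deep intronic bases but 0 of the 1565 peaks. Outside them the density was 61.0 per Mb in the IDR set and 57.5 ± 2.58 per Mb in the replicates (SD, n = 3), and deep introns held 18% of peaks on 20.4% of bases. This split was chosen after the data had been seen. Annotated transposable elements made up 9.51% of deep intronic bases but held 6 summits (0.383%), whereas soft-masked letters were as common at summits (26.0%) as over all deep intronic bases (25.8%). The part of read mapping in these differences was not tested.

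Density fell with distance from the TSS across the whole range of introns. Outside the repeat-rich bins it was 140 per Mb at 500 to 1000 bp, 110 per Mb at 1000 to 2000 bp and 85.5 per Mb at 2000 to 5000 bp. Beyond the 5000 bp of the rule it was 78.4 per Mb up to 7500 bp, 73.8 per Mb up to 10000 bp, 71.8 per Mb up to 15000 bp and 56.4 per Mb up to 20000 bp. It then reached 50.5 per Mb at 20000 to 30000 bp, 26.6 per Mb at 30000 to 50000 bp, and 0.932 per Mb (2 peaks in 2.15 Mb) farther out. In each replicate taken alone the density also fell at every step. The values up to 7500 bp were 70.7, 76.0 and 77.2 per Mb in replicates 1, 2 and 3, and those at 30000 to 50000 bp were 22.5, 26.6 and 27.2 per Mb, with no overlap between these bins. Genes without any deep intronic peak entered these densities, such as *Myo81F* with 877 kb of deep intron outside the repeat-rich bins. Their part in the fall with distance was not tested. The deep intronic peaks had a median distance to the TSS of 9488 bp (quartiles 6793 and 14169), and 835 of them (53.4%) lay within 10000 bp. The rule's limit cut through a continuous range: 60 peaks lay within 250 bp beyond it, with a median signal value of 151, and 60 intronic peaks lay within 250 bp inside it, with a median of 145. The closest kept peak was 5006 bp from a TSS with a signal value of 578, and the closest left out was at 4992 bp with 88.2.

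**Figure D2:**
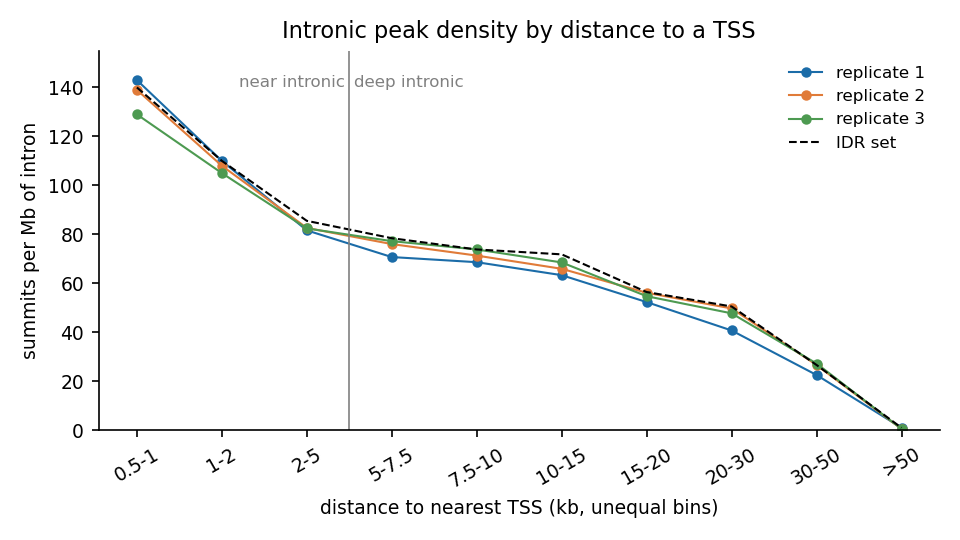
Summits per Mb of intron, outside repeat-rich bins, against distance to the nearest TSS in bins of unequal width; lines with dots are replicates and the dashed line is the IDR set. The vertical line marks the 5000 bp of the rule. Values run from 140 per Mb beside gene starts to 0.932 per Mb beyond 50000 bp in the IDR set.

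The peaks had a start of their own gene as the nearest, and lay in first introns, more often than deep intronic sequence does. The nearest TSS belonged to a gene whose body held the peak for 877 peaks (56.0%), against 47.4% of deep intronic positions read every 1000 bp and 49.0% of such positions outside the repeat-rich bins. The replicates gave 55.8, 56.5 and 56.4%, all above both shares. For 45.4% of peaks the summit was downstream of such a TSS, against 40.6% of positions. Of the 1533 peaks in protein-coding genes, 472 (30.8%) lay in the first intron left when all annotated exons of the gene are merged, against 17.1% of deep intronic bases. The introns that held peaks had a median length of 18.4 kb (quartiles 10.7 and 30.5). Summits within 1 kb of an exon made up 12.3% of the set, against 21.2% of deep intronic bases.

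The chromosome arms differed in how densely their deep introns were occupied. The IDR set held 66.9 per Mb on 2L (277 peaks), 65.2 on X (350), 59.0 on 3L (318), 47.3 on 2R (231), 47.0 on 3R (388) and 3.86 on arm 4, where a single peak lay in 0.259 Mb. In the replicates 2L gave 59.0, 65.0 and 64.8 per Mb and X 58.9, 60 and 66.9, so these arms overlapped. Arms 2R (42.0, 44.3 and 43.4) and 3R (43.5, 47.8 and 46.9) lay below both in every replicate. Outside the repeat-rich bins the IDR values moved to 67.2 per Mb on 2L, 65.9 on X, 65.6 on 3L, 57.0 on 3R and 53.0 on 2R. On 3R the gene *Myo81F* alone had 1905 kb of deep intron, 877 kb of it outside those bins, and no deep intronic peak in any list. Its part in the lower density of 3R was not tested.

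Deep intronic peaks were weaker than promoter peaks. The signal value is the authors' peak score and is compared only within a list. Its median was 140 for deep intronic peaks (77.5 to 1734, upper quartile 217), against 178 for promoter, 157 for near intronic and 134 for intergenic peaks. The ratio of deep intronic to promoter medians was 0.786 in the IDR set and 0.847, 0.842 and 0.718 in replicates 1, 2 and 3 (0.802 ± 0.0729, SD, n = 3; exact sign-flip permutation p = 0.25). Split by rank into 5 classes of 1740, the IDR set was 12.7% deep intronic in its strongest class and 20.6% in its weakest. Of deep intronic peaks 14.1% reached the strongest class, against 28.5% of promoter peaks.

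The replicates nevertheless shared most of them. Support means that a peak shared at least 1 bp with any of a replicate's 8700 strongest. Replicates 1, 2 and 3 supported 81.2, 89.3 and 86.1% of deep intronic peaks (85.5% ± 4.06, SD, n = 3), against 88.6, 91.1 and 86.7% of promoter peaks. The mean difference of -3.26 percentage points was of the same sign in each replicate (exact sign-flip permutation p = 0.25) and smaller than the spread between replicates. All 3 replicates supported 1081 deep intronic peaks (69.1%), against 74.4% at promoters, 72.3% in near introns and 66.8% between genes. A further 301 were supported by 2 replicates, 171 by 1 and 12 by none. In the 4 strongest rank classes all 3 replicates supported 99.5, 98.4, 94.9 and 59.3% of deep intronic peaks. The shares of all other peaks together were lower, at 98.8, 96.5, 88.5 and 55.6%. Promoter peaks were not set apart in this comparison. In the weakest class the shares were 9.19% of deep intronic and 14.1% of other peaks. The pooled list behind the IDR set comes from the same replicates, so part of this overlap is built in.

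The strongest deep intronic peak lay in *CG32486* on 3L (peak 3060598 to 3061014) with a signal value of 1734, which placed it at rank 32. Its signal was 458, 688 and 589 in the lists of replicates 1, 2 and 3, where it ranked 32, 36 and 27. No other deep intronic peak ranked among the first 100 of the IDR set. The 20 strongest that all replicates supported had signal values from 702 to 1734, IDR ranks from 32 to 351 and replicate ranks from 27 to 694, and 16 of them lay within 10000 bp of a TSS.

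These genes are described by role, a grouping made after their values were seen, and the first are genes for chromatin proteins. A peak with a signal of 1063 (3L, 19903099 to 19903470) lay in introns of 2 overlapping genes, *Mi-2*, the ATPase of the NuRD remodelling complex, and *Su(Tpl)*, which encodes the elongation factor ELL. It had 276, 468 and 316 in the 3 replicates and stood 6086 bp from a TSS. *simj*, another NuRD subunit, had a peak of 908 among 8 in the gene, and replicate values of 279, 390 and 240. *Psc*, a Polycomb repressive complex subunit, had 1015 (301, 450 and 267), *JIL-1*, a histone H3 kinase, had 944 (225, 486 and 236), and *gpp*, the histone methyltransferase Dot1, had 896 (235, 389 and 264). *trx*, the Trithorax histone methyltransferase, had 732 (182, 347 and 211). Replicate 2 gave the highest value for each of these genes, and replicate signal scales are not comparable.

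Others lay in genes of signalling and growth. The gene *dpp*, encoding a BMP ligand, held a peak of 1053 (2L, 2433447 to 2433833) 5278 bp from a TSS, with 286, 430 and 357 in the replicates. Its other 2 peaks had only 97.9 and 89.0 and were each supported by 1 replicate. The kinase gene *Raf* had 1007 (255, 397 and 360), and *shn*, a zinc finger protein that acts in Dpp signalling, had 907 (215, 417 and 278). The growth regulator *Myc* had 917 (228, 373 and 327) at a site that also lies in the noncoding gene *lncRNA:CR44999*, so its host is not unique. The ranks of these peaks in the IDR set were 103 for *dpp*, 129 for *Raf*, 176 for *Myc* and 183 for *shn*. The remaining strong peaks lay in *CG42238* (920), the splicing helicase gene *Prp16* (838), *tara* (820), *heca* (808) and the cadherin gene *Cad86C* (760).

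At its own gene, OdsH-GFP had 4 deep intronic peaks within 1 intron of *OdsH* (X, 17791449 to 17811680, 20232 bp). The strongest, at 17802908, had a signal of 674, with 158, 287 and 233 in the replicates, and stood 11898 bp from a TSS. The second, at 17807123, had 298 (45.6, 159 and 113), and both were supported by all 3 replicates. The other 2 had 87.2 and 82.0 and were supported by 1 replicate each. Since the flies carried an *OdsH* transgene, its own sequence could add reads here, which was not tested.

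The peaks were spread over a minority of the genes with long introns. Of 1760 protein-coding genes with any deep intronic sequence, 519 (29.5%) held at least 1 deep intronic peak, the background against which the gene lists are read. The replicates' own lists gave 502, 508 and 540 such host genes (517 ± 20.4, SD, n = 3), and 444 of the 519 held a peak in every replicate's list. Among hosts, 205 held 1 peak, 207 held 2 to 4, and 107 held 5 or more. Those 107 genes held 786 peaks, 50.2% of all. Hosts had more deep intronic sequence (median 15.5 kb) than the other genes (3.09 kb). The share of hosts was 4.15% among genes with up to 2 kb outside the repeat-rich bins, 37.3% at 5 to 10 kb, 53.8% at 20 to 50 kb and 57.1% above 50 kb, while peaks per Mb were highest at 5 to 10 kb (89.5) and lowest above 50 kb (41.5). In 79 cases the peak lay in more than 1 gene body, and 32 peaks lay only in noncoding genes.

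The gene with the most deep intronic peaks was *Snoo*, which encodes a cofactor of SMAD proteins. It held 23 in 75.3 kb of deep intron, and 19, 24 and 19 in the lists of replicates 1, 2 and 3. *kirre*, an immunoglobulin-type adhesion protein of myoblast fusion, held 22 (19, 21 and 24) in 226 kb. All 3 replicates supported 15 of the peaks of *Snoo* and 16 of those of *kirre*. *Tet*, a member of the TET dioxygenase family, held 19, *heca* (headcase) 18 and *SKIP* 15. The TALE homeobox gene *hth*, a partner of Hox proteins, and the corepressor gene *sbb* held 14 each, *sbb* in only 35.6 kb of deep intron. The adhesion genes *ed*, *ds* (a protocadherin ligand of Fat) and *Fas3* held 13, 12 and 11, and *plum*, an immunoglobulin-type receptor known from neuron remodelling, and *CG43658* held 13 each. Per length *sbb* (394 per Mb) and *plum* (383 per Mb) were the densest of these 12 genes and *kirre* (97.2 per Mb) the least dense. *fz*, *luna* and *tara* also held 11, the count of *Fas3*, so the order among them is arbitrary.

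**Figure D3:**
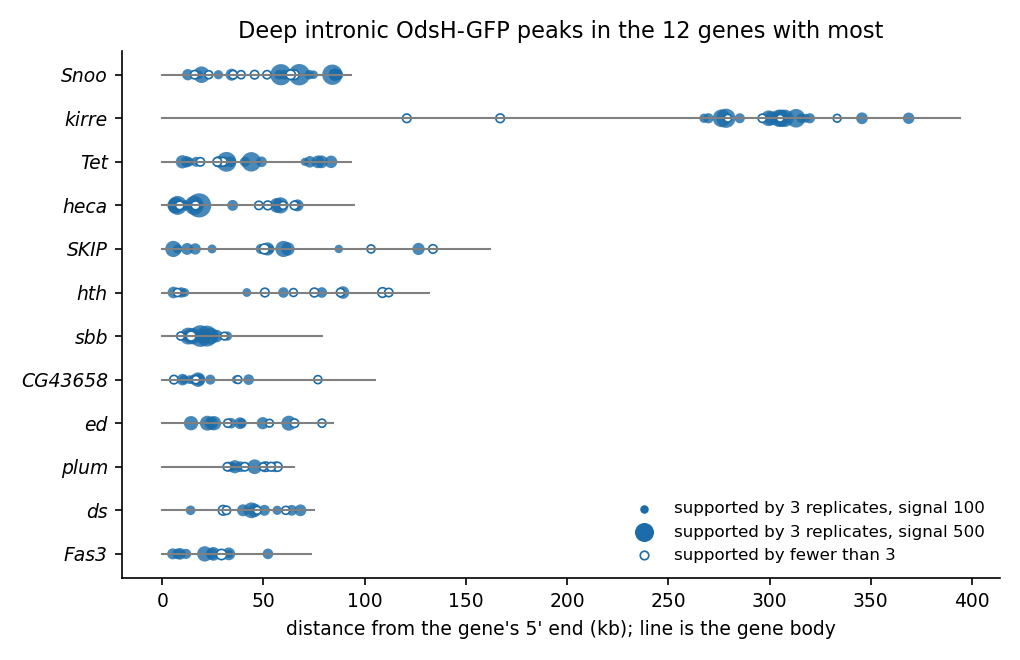
Deep intronic peaks along the 12 protein-coding genes with the most, drawn by distance from each gene's 5′ end in kb; the grey line is the gene body and dot area follows the authors' signal value. Filled dots were supported by all 3 replicates and open dots by fewer. The 14 peaks of *sbb* sit in a stretch of 23.1 kb, while most of the 22 of *kirre* lie in the 3′ part of a gene of 394 kb.

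Peaks stood close to one another. The median distance from a deep intronic summit to the next was 2455 bp (quartiles 1071 and 7157) in the IDR set and 2702, 2500 and 2818 bp in the replicates' lists. With gaps of up to 5000 bp, 68.8% stood in 352 runs of at least 2 peaks. The longest run held 14 peaks over 23.1 kb in *sbb*, followed by 13 over 24.9 kb in *plum*, 10 over 18.4 kb in *rdx* and 9 over 12 kb in *heca*. With gaps of up to 1000 bp, 23.3% stood in runs, of which the longest held 4, in *kuz* and in *Mkp3*. Some rows are not separate sites: 88 peaks (5.62%) overlapped another deep intronic peak, and merging them left 1521 regions.

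Hosts also carried peaks at their own gene starts more often than genes without a deep intronic peak. A summit lay within 500 bp of an own TSS in 40.3% of the 519 hosts, against 24.7% of the other 1241 genes. In the replicates the shares were 42.6, 42.5 and 38.9% of hosts, against 25, 24.9 and 25.4% of other genes (41.3% ± 2.11 and 25.1% ± 0.265, SD, n = 3; exact sign-flip permutation p = 0.25). The hosts' values lay above the others' in every replicate. Among genes with 10 to 50 kb of deep intron outside the repeat-rich bins, 39.6% of 278 hosts had such a promoter peak, against 17.2% of 274 other genes.

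The ecdysone response genes had the highest density of the 9 gene lists in the IDR set and in each replicate. Of 20 such genes with deep intronic sequence, 15 (75%) held a peak, against 29.5% of all genes. Their median deep intron was 20.7 kb, against 6.00 kb for all genes. Of all genes with 20 to 50 kb outside the repeat-rich bins, 53.8% were hosts. The ecdysone genes had 137 peaks per Mb in the IDR set and 120, 127 and 120 in replicates 1, 2 and 3. All protein-coding genes had 55.4 in the IDR set and 49.9, 53.4 and 54.2 in the replicates. Outside the repeat-rich bins the IDR value of all genes was 60.8, and that of the ecdysone list stayed at 137. No replicate value of the list overlapped those of all genes. *Hr4*, a nuclear receptor of the hormone cascade, held 10 peaks, with the strongest at a signal of 989 (275, 440 and 282 in the replicates) 5813 bp from a TSS. *Eip75B*, another ecdysone-induced nuclear receptor, held 6, led by 829 (235, 350 and 249) and 704 (136, 359 and 205). *E23*, an ABC transporter gene induced by ecdysone, held 4, led by 702 (196, 312 and 208). *EcR*, encoding the receptor itself, held 1 peak in the IDR set and in replicates 1 and 2, and 0 in replicate 3. The 5 genes of the list without a peak in the IDR set were *br*, *chinmo*, *crol*, *hid* and *rn*; *br* had 44.0 kb of deep intron and 1 peak in replicate 3. *EcR* and these 5 genes were named after their values were seen.

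Signalling genes and developmental regulators followed. Of the signalling and cytoskeleton genes 49 of 82 (59.8%) were hosts, at 130 per Mb (replicates 116, 118 and 118). Its strongest peaks included those of *dpp* (1053) and of *fz2*, a Wingless receptor gene (597). Of the other transcription regulators of development 36 of 59 (61.0%) were hosts, at 113 per Mb (105, 114 and 107), led by *shn* (907), *sbb* (646) and *Dad*, an inhibitory SMAD gene (582). Neither list overlapped all protein-coding genes in any replicate. The 2 lists share the genes *tkv* (5 peaks), *pnt* (2), *foxo* (2) and *sd* (0), so they are not separate. The homeobox list, named for the family of OdsH but also holding the bZIP gene *Pdp1* (1 peak), had 16 hosts among 53 genes (30.2%). This was close to the 29.5% of all genes. The density of the list was 72.3 per Mb, with 63.0, 63.0 and 77.7 in the replicates, above all genes in each. Its strongest peaks lay in *OdsH* (674), *NK7.1* (421) and the Hox gene *Antp* (388).

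Of the ion channel and neurotransmitter receptor genes 6 of 56 (10.7%) were hosts, although their median deep intron of 16.9 kb exceeded the 6.00 kb of all genes. Their density was 7.89 per Mb in the IDR set and 5.26, 7.02 and 10.5 in the replicates, far below all genes in each. The strongest peaks lay in *Ca-beta*, a calcium channel subunit gene (395), and in the acetylcholine receptor genes *nAChRalpha6* (257) and *nAChRalpha5* (122). Genes for RNA-binding proteins were hosts in 14 of 24 cases (58.3%) but had a density of only 35.2 per Mb (28.3, 33.5 and 35.2), led by *shep* (598) and the translational repressors *brat* (385) and *pum* (369). Axon guidance and cell adhesion genes were hosts in 36 of 92 cases (39.1%) at 48.0 per Mb (40, 42.7 and 51), led by the integrin gene *mew* (662), *kirre* (509) and the receptor phosphatase gene *Ptp10D* (410). Muscle genes were hosts in 5 of 18 cases (27.8%) at 62.1 per Mb (66.3, 58.0 and 58.0), led by *Glut4EF* (440), the Z-disc gene *Zasp52* (232) and *rols* (191). The RNA-binding and adhesion lists lay below all genes in each replicate, although the adhesion list's highest value exceeded the lowest of all genes, and the muscle list lay above all genes in each. *Glut4EF* alone held 9 of the 15 peaks of the muscle list, in 83.1 of its 241 kb, and 9 in each replicate's list. The place of the muscle list above all genes depended on this gene. It also narrowed outside the repeat-rich bins, to 62.1 per Mb against 60.8 for all genes in the IDR set. Replicate values of the lists outside these bins were not computed. None of the genes for cytosolic ribosomal proteins had deep intronic sequence. Gene lengths and host shares move together, so a list's share of hosts is not comparable between lists of different length.

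**Figure D4:**
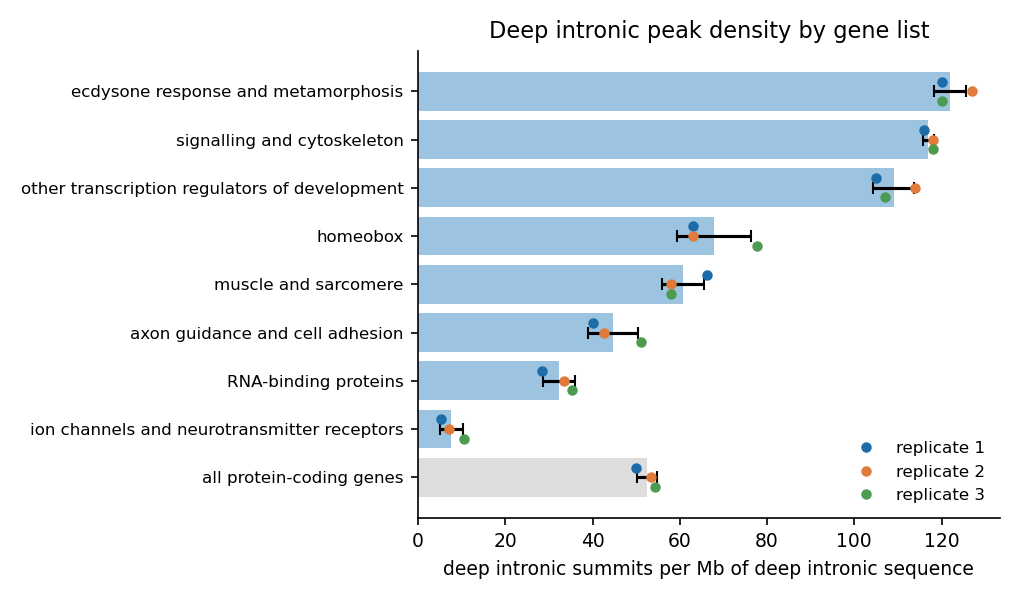
Deep intronic summits per Mb of deep intronic sequence for 8 gene lists and, at the bottom in grey, all protein-coding genes. Bars are means over the 3 replicates' own lists with SD, and dots are replicates. The ecdysone list stands at 122 ± 3.72, all genes at 52.5 ± 2.28, and ion channels and receptors at 7.60 ± 2.68.

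Summits sat in narrow troughs of low GC content. In 4844 of the 8700 IDR rows the summit given is the midpoint of the interval. What this does to summit windows was not tested. Within 50 bp to each side of the summit GC averaged 31.0%, against 43.1% in equal windows centred 500 bp to either side, and 88.9% of summits had less GC than their own flanks. The difference was -11.1, -11.7 and -11.9 percentage points in replicates 1, 2 and 3 (-11.6 ± 0.393, SD, n = 3; exact sign-flip permutation p = 0.25) and far exceeded the spread. Deep intronic sequence outside peaks averaged 40.3% GC over 273081 windows of the same length, and 16.7% of those windows were at or below the mean of the summits. The trough was similar at promoter peaks (32.9% against flanks of 44.4%), near intronic peaks (31.4% against 42.7%) and intergenic peaks (30.9% against 43.8%). In finer steps of 25 bp, GC was 29.9% at the summit, 45.0 and 45.7% at 200 bp to either side, and 40.7 and 40.1% at 1000 bp, so shoulders above the surrounding intron flanked the trough. Near intronic and intergenic peaks had such shoulders too, reaching 45.4% and 46.9% at 250 bp from the summit. Deep intronic summits of the strongest rank class averaged 29.3% GC, against 31.8% in the weakest.

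**Figure D5:**
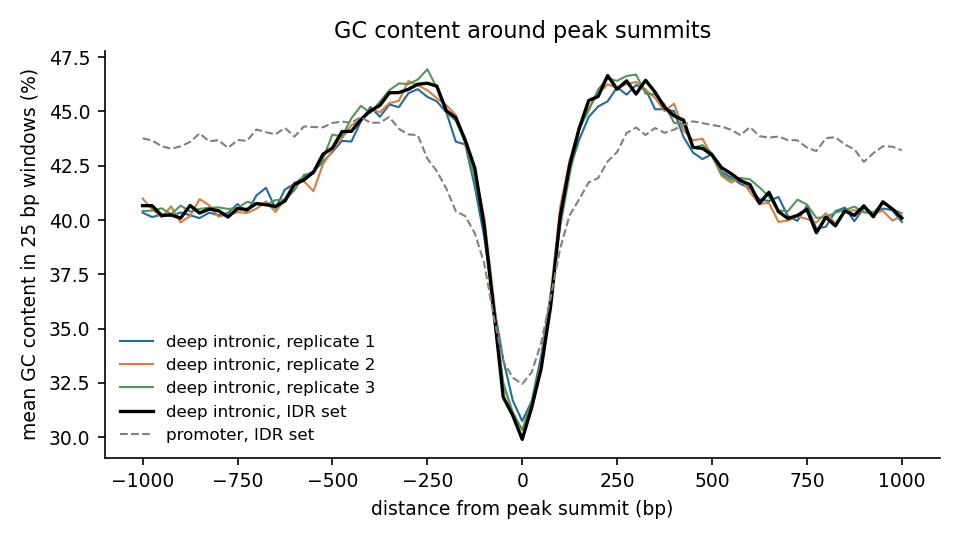
Mean GC content in 25 bp windows against distance from the summit. Coloured lines are deep intronic peaks of the replicates' own lists, the black line those of the IDR set and the dashed grey line promoter peaks. The deep intronic profile falls to 29.9% at the summit between shoulders that reach 46.6%.

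The homeodomain word TAATTA was more frequent at summits than beside them, but not more frequent than in deep intronic sequence of the same GC content. All words were searched on both strands. TAATTA occurred in 165 summit windows (10.5%), against 6.17% of flanking windows, a ratio of 1.71. The replicates gave ratios of 1.39, 1.53 and 1.59 (1.51 ± 0.104, SD, n = 3; exact sign-flip permutation p = 0.25), all above 1. Against deep intronic windows outside peaks, weighted to the GC content of the summits, the share was 10.5% against 12.2%, a ratio of 0.864, and 0.819, 0.834 and 0.898 in the replicates. The direction therefore turned with the background in every replicate. TAATTA was found in 3.38% of windows at all annotated TSSs. Among the other peaks it occurred in 10.9% of promoter, 10.9% of near intronic and 11.2% of intergenic summits, so it was not particular to deep introns. From the strongest rank class to the weakest, 12.2, 12.5, 9.12, 9.12 and 10.6% of deep intronic summits carried it. The shares were thus highest in the stronger classes but did not fall steadily.

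TAATTG occurred in 11.9% of summits, against 10.5% of flanks (1.13) and 13.5% of GC-weighted windows (0.880). A TAAT and an ATTA 2 bp apart, the spacing of a paired-class dimer, occurred in 1.21% of summits, against 0.288% of flanks (4.22) and 1.32% of GC-weighted windows (0.923). With 3 bp between them the shares were 1.79% of summits, against 0.447% of flanks (4.00) and 1.82% of GC-weighted windows (0.986). In the replicates' lists the GC-weighted ratios were 0.892, 0.840 and 0.829 for TAATTG, 0.903, 0.979 and 0.904 for the 2 bp dimer, and 1.19, 1.12 and 0.988 for the 3 bp dimer, so only the last lay on both sides of 1. These dimers include occurrences that overlap the shorter words. All annotated TSS windows held the dimers in 0.343% and 0.322% of cases and TAATTG in 6.12%. Promoter, near intronic and intergenic summits held TAATTG in 10.6, 12.2 and 11.8% of cases. In the same order they held the 2 bp dimer in 1.86, 1.44 and 1.56% and the 3 bp dimer in 1.94, 1.96 and 1.17%.

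GGTCACAC had the highest ratio to GC-weighted windows of the 20 words and dimers searched. It occurred in 11 summit windows (0.703%), against 0.128% of flanks (5.50) and 0.0867% of GC-weighted windows (8.11). The replicates' own lists held it in 11, 10 and 6 deep intronic windows, at 8.58, 7.51 and 4.47 times the GC-weighted share. It was present in 0.837% of promoter summits, 0.241% of near intronic and 0.223% of intergenic summits, and in 3.90% of windows at all annotated TSSs. Of the 11 peaks only 4 were supported by all 3 replicates, and the strongest, in *S*, had a signal of 322 and rank 1540. The control word ACTGATCG, in 2 summit windows (0.128%), had a GC-weighted ratio of 2.27, so small counts can give ratios of that size. The DNA replication-related element TATCGATA, a housekeeping promoter word, occurred in 3 deep intronic summits (0.192%), against 1.90% of promoter summits. The GATA-like word AGATAAG occurred in 1.66%, against 0.927% of flanks (1.79) and 1.5% of GC-weighted windows (1.11), and was above both in all 3 replicates. The E-boxes CACGTG (0.192% against 1.12%) and CAGCTG (1.92% against 4.41%), the CA repeat CACACACA (0.767% against 4.15%) and the GAGA-like GAGAGAG (0.767% against 2.27%) were rarer at summits than in flanks in every replicate. Against GC-weighted windows CAGCTG stood at 1.21 and CACGTG at 0.375, with replicate ratios of 0.768, 0.886 and 0.874 for CACGTG. The nuclear receptor word AGGTCA occurred in 1.98% of summits, against 2.20% of flanks and 2.05% of GC-weighted windows. Over all 20, 10 were more frequent than in flanks in all 3 replicates and 6 less frequent, while 6 were more and 6 less frequent than in GC-weighted windows. A word in a window describes its letters and does not show which protein was bound.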

How the data were processed

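The 3 replicates, the pooled list and the IDR set were read on dm6. Each replicate was called against the same control alignment, per the deposited file lists. The aligner is not given in the sources used here, nor is the peak caller. Signal values come from the authors' peak calling and served to order peaks inside a list. The authors' −log10 q-value reaches a cap in 7829 of the 8700 IDR rows (90.0%) and ranks nothing here. The IDR rows are the 8700 strongest of the pooled list, and replicate lists of 30000 rows were read to the same length. The deposited dm3 lists were not used here.

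Gene bodies, exons and TSSs came from Ensembl release 115 (BDGP release 6), without transposable elements. Sequence came from the RefSeq copy of that assembly, whose arm lengths cover every peak and gene. Python 3.11.15, numpy 2.4.6 and pandas 2.3.3 did the computing; classes, overlaps, words and permutations were tested on simulated data. Values per replicate are followed by their mean ± SD, and peaks and genes, which are not replicates, entered no test.

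Named genes were *OdsH*, hosts of the 20 strongest peaks supported by all replicates, the 12 coding genes with most peaks, and up to 3 hosts per list with the strongest peak. One item that this rule would name is not reported here. The peaks, the 9 lists (719 of 739 symbols matched) and the words were chosen with earlier results of these data known.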

Additional observations from a re-analysis of the deposited data

How the results depend on the processing

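Of 73 alternative values, 37 stayed within the replicate spread (host genes: within 1.5 times), 34 moved farther and 2 turned to the other side of their background; replicate support and host genes have no such side. With the TSS distance at 2500 bp or 10000 bp the deep intronic share was 27.8% (28.8% of bases) or 8.39% (12.9%), with protein-coding annotation alone 19.9% (22.6%) and in the stronger 4350 peaks of the IDR set 15.9%. In all rows of the pooled list it was 21.3%, above the 21.1% of bases. The authors label that list as peaks and background, so this value does not describe weak binding sites. The signal ratio against all other peaks was 0.896. The GC difference was -12.7 in the stronger 4350, -12.6 in peaks supported by all replicates, -12.5 and -9.57 with 25 and 100 bp to each side, and -15.2 and -9.49 with flanks at 250 and 1000 bp. The TAATTA ratio in the same settings was 2.13, 1.86, 2.04, 1.30, 2.24 and 1.28, and it was 1.95 beyond 10000 bp, 1.58 with protein-coding annotation, 1.46 against unweighted deep intronic windows and 0.864 against GC-weighted ones. Support by all replicates was 98.4% in the stronger 4350, 47.2% with a reciprocal overlap of 50% and 95.7% with lists of doubled length. Host genes numbered 254 beyond 10000 bp and 324 in the stronger 4350. The causes were not tested. An alternative that took peak midpoints in place of summits is partly the same data, because 4844 of the 8700 IDR rows give the midpoint as summit.

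With each replicate left out in turn, the mean of the other replicates' lists gave a share of 16.7 to 17.4%, a signal ratio of 0.780 to 0.844, a GC difference of -11.8 to -11.4 and a TAATTA ratio of 1.46 to 1.56. Both other replicates supported 72.9 to 78.3% of peaks, in 445 to 458 host genes. An alternative added after the data were seen left out the repeat-rich bins. Those bins held 0 deep intronic peaks, so the GC difference, TAATTA ratio, support and host genes could not change. They count among the values that stayed but test nothing. The signal ratio, at 0.785, could move only through promoter peaks. The share of peaks stayed within the replicate spread, while the share of bases it is compared with fell from 21.1% to 20.4%. No paired analysis was possible because there is a single group. Depth per library is unknown, the control is shared by all lists, and 3 replicates cannot give p below 0.25.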

Other observations

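Some genes with much deep intronic sequence held no deep intronic peak in the IDR set or in any replicate's list. They were *Myo81F* (1905 kb, of which 877 kb lay outside the repeat-rich bins), *Pzl* (690 and 348 kb), *DIP-lambda* (372 and 366 kb), *bru3* (215 kb, all outside), *l(3)80Fg* (198 and 197 kb), *Gprk1* (142 kb), *AGO3* (123 kb) and *CG40006* (122 kb). These are the 8 with the most such sequence outside the bins, chosen after their values were seen. Among noncoding genes *lncRNA:CR44833* held 12 deep intronic peaks, *lncRNA:CR44357* 10 and *lncRNA:CR32773* 9, of which some also lie in coding genes.

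A scan of 7-letter words, also made after the data were seen, compared 1158 words found in at least 2% of deep intronic summits with GC-weighted deep intronic windows. The 6 words with the highest ratios, which have that ratio by their choice, were ACAGTGG (2.24% of summits, 3.36 times the GC-weighted share), CAGTGCA (3.00%, 3.18), AGTGCAC (2.30%, 3.11), CAGTGTA (2.49%, 2.87), AGGGTAT (2.56%, 2.39) and CTGTGCA (2.04%, 2.04). CAGTGCA and AGTGCAC overlap by 6 letters and are not separate. In promoter peaks, which did not enter the choice, their ratios were 3.58, 2.20, 1.87, 2.37, 2.07 and 1.62, and in intergenic peaks 1.94, 4.18, 2.75, 3.06, 1.76 and 1.81, in the same order. CAGTGTA occurred in 0.575% of windows 500 bp from deep intronic summits and AGGGTAT in 0.767%. ACAGTGG (1.88%) and CTGTGCA (1.76%) were nearly as frequent there as at the summit.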
